A study of Mus musculus with 72 samples.

Results

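Natriuretic peptide signalling was described through 8 genes chosen by symbol, out of the 53715 genes counted in each library. They were the peptide genes Nppa, Nppb and Nppc, the receptor genes Npr1, Npr2 and Npr3, and the protease genes Corin and Furin, and each was found in the count files under 1 Ensembl identifier. The libraries came from 18 male mice of 18 weeks of age on a C57BL/6J background: 6 Gnb5-/-, 6 Gnb5+/- and 6 wild-type (Gnb5+/+) animals. Gnb5 encodes an atypical G protein beta subunit that works with R7 RGS proteins, and the mutant allele lacks exon 3 in the germline, so that the loss was not restricted to the heart or to any cell type. Atria (right and left together, with the sinoatrial and atrioventricular nodal cells they hold) and whole ventricles were sequenced for all 3 genotypes. Whole cerebellum, both hippocampi and whole cerebral cortex were sequenced for Gnb5-/- and Gnb5+/+ mice, which gave 72 libraries in 12 groups of 6, each library of a group from another mouse. No group received a treatment.

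Heart muscle secretes atrial natriuretic peptide (ANP, from Nppa) and B-type natriuretic peptide (BNP, from Nppb) in response to stretch, and both lower blood volume and pressure. They bind the guanylyl cyclase receptor GC-A (Npr1), which makes cyclic GMP, whereas C-type natriuretic peptide (CNP, from Nppc) acts locally in vessels, bone and brain through the related receptor GC-B (Npr2). The clearance receptor NPR-C (Npr3) has no cyclase domain, takes up the peptides of all these genes and can signal through inhibitory G proteins. Peptides are made as precursors, which the cardiac serine protease corin (Corin) and the widely expressed proprotein convertase furin (Furin) cut.

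The 72 libraries held 29204390 to 48807435 reads within genes. Levels below are normalised counts (CPM, the read count relative to library size), scaled by TMM factors over all 72 libraries, and levels of different genes are compared only after division by exon length (CPM per kb). Gnb5 itself averaged 33.4 CPM in Gnb5+/+ atria, 17.4 in Gnb5+/- atria and 2.06 in Gnb5-/- atria, and its genotype groups did not overlap in any tissue. The tissue labels were matched by their markers: summed atrial myocyte markers (Myl7, Myl4, Sln, Bmp10) lay between 13017.5 and 18505.5 CPM in the 18 atrial libraries and between 16.1 and 266 CPM in the 18 ventricular libraries. Libraries that stood apart were the Gnb5-/- cortex library of mouse 14 and the Gnb5-/- cerebellum library of mouse 12, whose mean correlations with the other libraries of their groups were 0.879 and 0.912. Among wild-type mice, the hippocampus and cerebellum libraries of mouse 8 held cardiac muscle transcripts (Myh6, Tnnt2 and Actc1 summed to 178 and 52.3 CPM).

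Nppa (mouse genome build GRCm38, chr4:148000722-148002079, plus strand) and Nppb (chr4:147985788-147987205, plus strand) are neighbours, 13516 bases apart with 0 annotated genes between them, whereas Nppc lies at chr1:86666291-86670571 on the minus strand. The 250 bases before the RefSeq start site of each peptide gene are shown because Nppa and Nppb were read mainly in the heart and Nppc mainly in the brain. Capitals mark the letters of 5 motifs searched on both strands, with no overlap between matches in these windows. They were the T-box motif TCACACCT, the motif TNAAGTG of NK2 factors, the motifs TGATAA as well as AGATAA of GATA factors, and the core promoter motif TATAAA. The Nppa window is chr4:148000472-148000721 on the plus strand, the Nppb window chr4:147985650-147985899 on the plus strand and the Nppc window chr1:86670574-86670823 on the minus strand (RefSeq, GRCm38.p6).
Nppa: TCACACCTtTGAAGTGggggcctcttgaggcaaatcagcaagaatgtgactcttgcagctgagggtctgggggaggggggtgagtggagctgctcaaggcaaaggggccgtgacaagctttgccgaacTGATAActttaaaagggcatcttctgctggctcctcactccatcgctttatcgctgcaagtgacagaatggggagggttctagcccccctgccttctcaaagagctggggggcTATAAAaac
Nppb: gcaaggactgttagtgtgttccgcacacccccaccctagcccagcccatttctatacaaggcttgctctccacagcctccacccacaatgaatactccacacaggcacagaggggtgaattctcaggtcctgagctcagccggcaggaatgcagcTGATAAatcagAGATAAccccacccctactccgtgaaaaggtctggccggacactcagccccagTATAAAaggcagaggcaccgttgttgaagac
Nppc: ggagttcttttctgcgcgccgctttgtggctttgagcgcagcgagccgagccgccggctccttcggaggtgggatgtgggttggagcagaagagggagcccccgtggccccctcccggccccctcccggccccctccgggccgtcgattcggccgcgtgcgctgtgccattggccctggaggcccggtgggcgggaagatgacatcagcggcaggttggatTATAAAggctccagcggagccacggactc

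Counted from 0 at the first transcribed base, the Nppa window held TCACACCT from -250, TGAAGTG from -241, TGATAA from -122 and TATAAA from -9. The Nppb window held TGATAA from -95, AGATAA from -84 and TATAAA from -31, and the Nppc window held TATAAA from -29. Among 32817 RefSeq promoter windows, which also hold the first transcribed bases, 1.274% held TCACACCT, 11.55% TNAAGTG, 9.062% TGATAA, 11.18% AGATAA and 13.62% TATAAA. The upstream bases of Npr1, Npr2, Npr3 and Corin held none of the letters. Furin differed, with TNAAGTG from -206 and from -6 and TATAAA from -23 at its start next to chr7:80405437-80405686 (minus strand). The upstream bases of the other Furin start held none. The RefSeq start of Nppb lies inside the gene span given above, so that its window covers the first bases of that span. The matches describe the letters only, and no binding was measured.

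Nppa was the most highly expressed nuclear protein-coding gene of the atria in all 3 genotypes when levels were divided by exon length. Its transcripts took 0.916% to 1.47% of all counted reads in Gnb5+/+ atria. In Gnb5+/+ atria the lowest library held 11939.9 CPM, the median was 14711 and the highest 16823. In Gnb5+/+ ventricles the corresponding values were 78.8, 138 and 189 CPM. No atrial library came near a ventricular one, and the atrial mean was 109.5 times the ventricular mean (log2 fold change 6.79 ± 0.25 SE, n = 6 mice, adjusted p = 3.4e-16). In bulk tissue a smaller number of expressing cells and less RNA per cell cannot be told apart.

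The ventricular level of Nppa in wild-type mice was 0.913% of the atrial level, and the atrial markers Myl7, Myl4 and Sln stood at 1.07%, 1.00% and 0.797% of theirs in the same ventricles, whereas the fourth atrial marker, Bmp10, stood at 0.0722%. A small amount of atrial tissue in the ventricular samples was not tested as a source of the ventricular Nppa reads. In Gnb5-/- ventricles the corresponding share was 1.19% for Nppa, against 0.760% for Myl7, 0.667% for Myl4, 0.469% for Sln and 0.00776% for Bmp10.

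Nppb differed much less between the chambers. Gnb5+/+ atria held 185 CPM in the lowest library, a median of 291 and 685 in the highest, and Gnb5+/+ ventricles held 89.9, 166 and 346 CPM. The ranges overlapped, and the atrial mean was 1.91 times the ventricular one (log2 fold change 0.92 ± 0.24, adjusted p = 0.0020). Per kb of exon, the ratio of Nppa to Nppb had a median of 45.9 in Gnb5+/+ atria (22.2 to 66.3) and of 0.767 in Gnb5+/+ ventricles (0.492 to 1.20).

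Nppc was a transcript of the brain in these libraries. No Nppc read was counted in the 6 Gnb5+/+ atrial libraries together, which allows up to 0.0163 CPM (3 counts over the group on the same TMM scale, for counting error only). The Gnb5+/- and Gnb5-/- atria held 5 reads and 1 read in all, and Gnb5+/+ ventricles ranged from 0 to 0.110 CPM. In the brain of Gnb5+/+ mice Nppc averaged 1.70 ± 0.45 CPM (SD, n = 6) in cortex, 1.28 ± 0.17 in cerebellum and 0.836 ± 0.15 in hippocampus. Against the atrial limit these means were at least 104, 78.8 and 51.4 times higher. Cortex and cerebellum did not pass the test (adjusted p = 0.098), but passed it with RLE size factors in place of TMM (adjusted p = 0.043) and with DESeq2 (adjusted p = 0.031). The cerebellum exceeded the hippocampus without overlap (adjusted p = 0.0014).

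Nppa and Nppb were close to absent from the brain. Nppa did not exceed 0.602 CPM and Nppb did not exceed 0.722 CPM in any brain library, both maxima being the Gnb5+/+ hippocampus of mouse 8. In that library Nppa, Nppb and Corin stood at 0.447%, 0.404% and 0.441% of their Gnb5+/+ ventricular means, and Myh6, Tnnt2, Actc1 and Myl2 at 0.321%, 0.302%, 0.437% and 0.339% of theirs. In the other 5 Gnb5+/+ hippocampal libraries Nppa reached 0.102 CPM and Nppb 0.0713 CPM at most. In the cerebellum Nppb was at 0 in the 6 Gnb5-/- libraries (up to 0.00856 CPM allowed) and in all Gnb5+/+ libraries but that of mouse 8.

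Between heart and brain of wild-type mice nearly every member differed, as did most genes tested. In atria against each brain region 7 of 8 members were higher and 1, Nppc, was lower, where 87.3% (cerebellum), 87.6% (hippocampus) and 88.1% (cortex) of all 19477 genes tested were called. Of these genes, 7791, 7903 and 7975 were called higher in atria. In ventricles the counts were the same against hippocampus and cortex (backgrounds 87.8% and 88.3%), and against cerebellum 6 were higher and 1 lower (87.3%). Called higher in ventricles were 7606, 7668 and 7525 genes against hippocampus, cortex and cerebellum. Within the brain, 7 of 8 members differed between cerebellum and hippocampus (background 70.8%), 5 between cerebellum and cortex (71.8%) and 4 between hippocampus and cortex (37.7%). The Nppb calls of hippocampus against cerebellum and cortex did not hold without the mouse as a block (adjusted p = 0.10 and 0.070). DESeq2 also called Nppa in cerebellum against hippocampus and cortex (adjusted p = 0.041 and 0.0044). It further called Nppc in cerebellum against cortex and Npr2 in hippocampus against cortex.

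**Figure D1:**
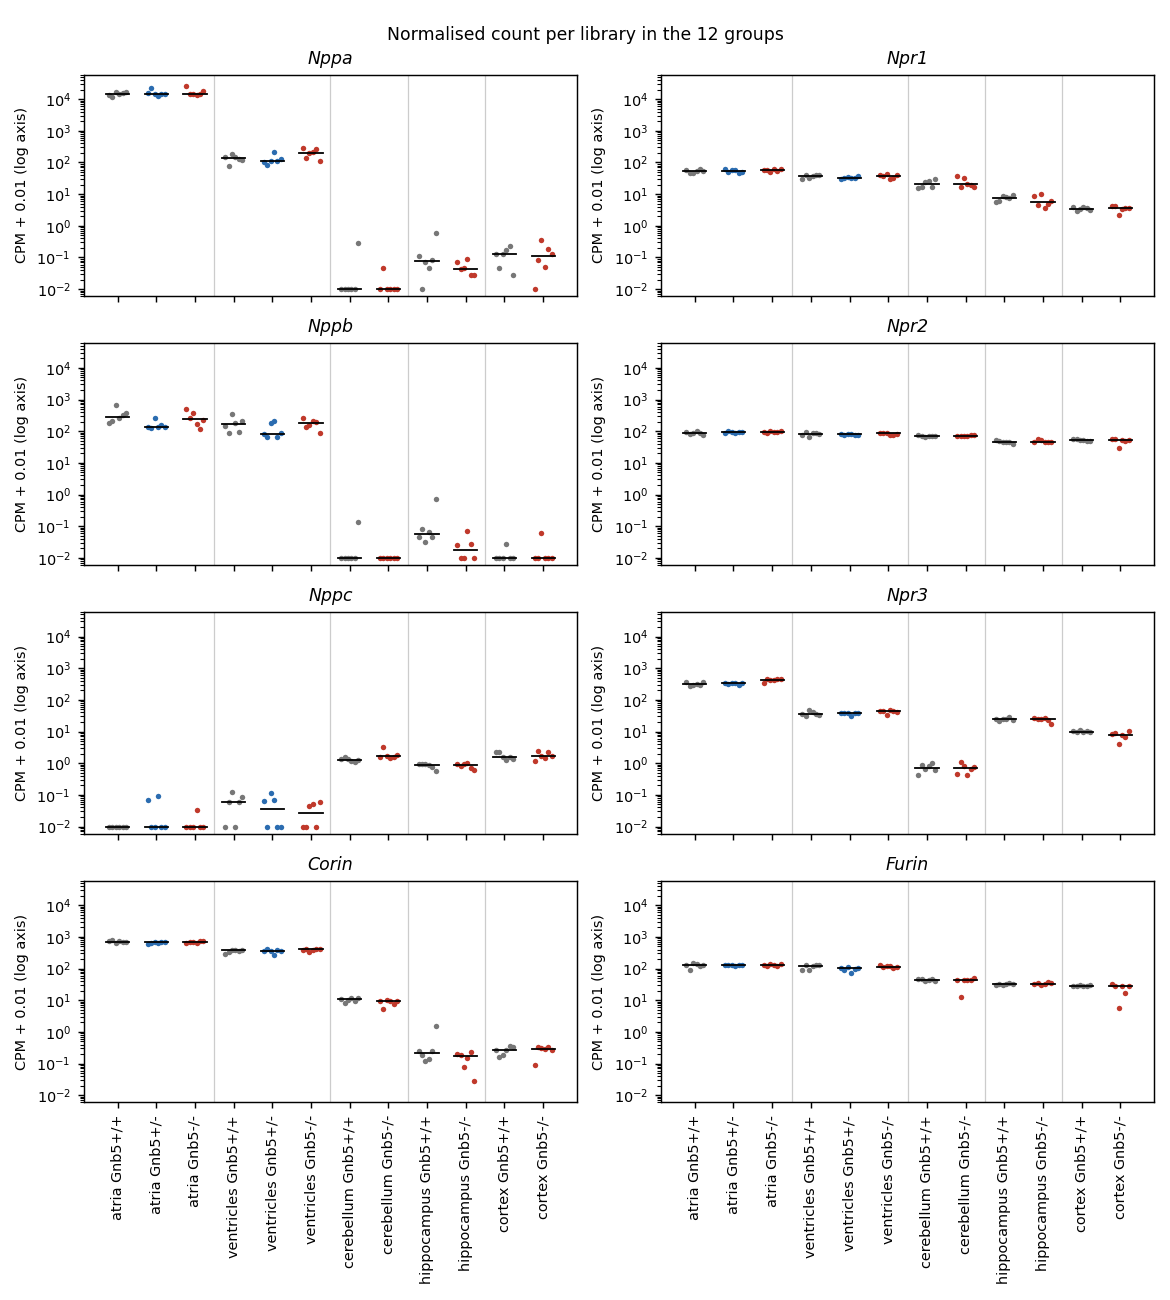
Normalised count of each of the 8 genes in every library, on a log axis in CPM after adding 0.01, by tissue and genotype; dots are libraries (grey Gnb5+/+, blue Gnb5+/-, red Gnb5-/-) and black lines are group medians. Nppa, Nppb, Corin, Furin and, narrowly, Npr3 (30.3 CPM or more against 28.4 or less) separate heart from brain, and Nppc is higher in brain. Npr1, Npr2, Npr3, Corin and Furin have reads in all 72 libraries.

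In the heart, the peptide genes did not pass the test in any genotype comparison, in which both mutant genotypes were set against the same Gnb5+/+ libraries. With edgeR 0 of the 7 members tested were called in Gnb5+/- atria, Gnb5+/- ventricles and Gnb5-/- ventricles, where 0.0124%, 0.0202% and 0.188% of all genes were called. At an unadjusted p below 0.05 there was 1 member in each of the 3 (Nppb, Furin and Nppa), against 7.22%, 4.84% and 4.78% of all genes. DESeq2 called 0 members. Nppc had too few reads in the heart to be tested. Nppa in Gnb5-/- ventricles ranged from 115 CPM over a median of 206 to 291, above the Gnb5+/+ mean in 5 of 6 mice, with overlap between the groups. The log2 fold change was 0.58 ± 0.24 (adjusted p = 0.89), with a two-sided exact permutation p of 0.067. Summed atrial myocyte markers in ventricles had a median of 75.2 CPM in Gnb5-/- mice (52.9 to 107) and of 118 CPM in Gnb5+/+ mice (50.9 to 199). In atria, Nppa medians were 14711, 14848 and 14770 CPM in Gnb5+/+, Gnb5+/- and Gnb5-/- mice, and the log2 fold change was 0.21 ± 0.16 in Gnb5-/- mice (adjusted p = 0.82) and 0.10 ± 0.16 in Gnb5+/- mice (adjusted p = 0.93). Without the Gnb5-/- mouse 10 the former was 0.036. Among the Gnb5-/- animals, mouse 10 had 26775 CPM in atria and also the highest ventricular value of its group.

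Nppb showed its largest genotype difference in Gnb5+/- atria. The 6 Gnb5+/- libraries ranged from 124 CPM over a median of 140 to 258, and all 6 lay below the Gnb5+/+ mean, although the groups overlapped between 185 and 258 CPM. The log2 fold change was -1.10 ± 0.33 (n = 6 and 6, adjusted p = 0.61), with an exact permutation p of 0.0087. Gnb5-/- atria ranged from 115 CPM over 244 to 494, with a log2 fold change of -0.31 ± 0.32 (adjusted p = 0.88). Summed ventricular myocyte markers (Myl2, Myl3, Irx4) in atria had medians of 381, 137 and 210 CPM in Gnb5+/+, Gnb5+/- and Gnb5-/- mice, within overlapping ranges. Neither the source of these marker reads nor their part in the Nppb values was tested. In ventricles the log2 fold changes of Nppb were -0.67 ± 0.34 in Gnb5+/- mice (adjusted p = 0.96, and -0.36 without the Gnb5+/+ mouse 17) and -0.06 ± 0.34 in Gnb5-/- mice (adjusted p = 1.00).

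Across mice, Nppa and Nppb rose and fell together in the ventricles. After each genotype's mean was removed, their log2 levels correlated with Pearson's r = 0.797 over 18 mice (permutation p = 9e-05, adjusted over 5 relations 0.00045) and Spearman's rho = 0.761 (permutation p = 0.00049, adjusted 0.0024). Without the 2 mice farthest from the median of Nppa r was 0.709, and without any single mouse it stayed between 0.753 and 0.861. Within genotypes r was 0.757, 0.740 and 0.963 in Gnb5+/+, Gnb5+/- and Gnb5-/- mice, 6 each. In atria r was 0.428 (permutation p = 0.076, adjusted 0.13; rho = 0.424, permutation p = 0.081, adjusted 0.20) and differed in sign between genotypes, at 0.842, -0.338 and 0.571. No relation was detected between the level of Nppa in a mouse's atria and that in its ventricles (r = -0.02, permutation p = 0.95, rho = -0.11, permutation p = 0.66). For Nppb the same comparison gave r = 0.445 (permutation p = 0.064, adjusted 0.13) and rho = 0.348 (permutation p = 0.16, adjusted 0.26). For Npr3 it gave r = 0.0090 (permutation p = 0.97) and rho = -0.07 (permutation p = 0.78).

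**Figure D2:**
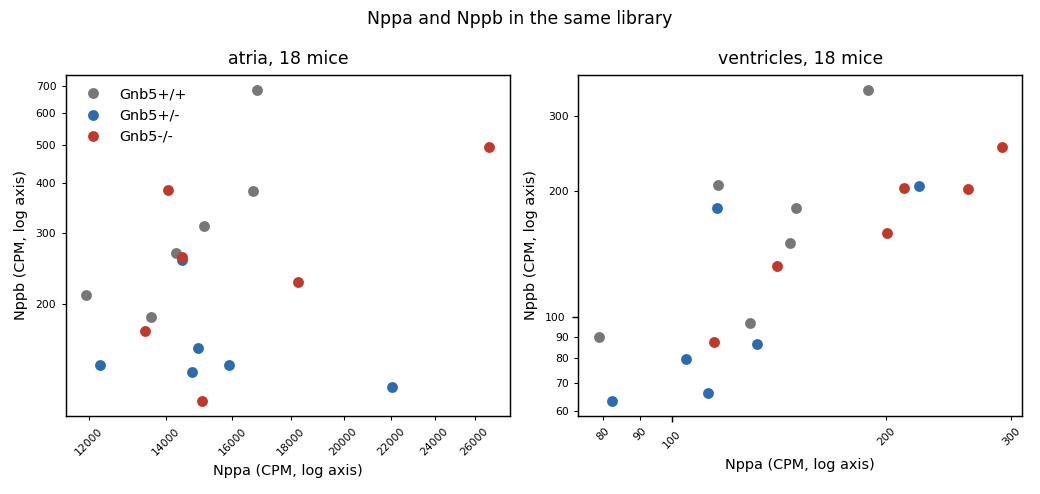
Nppb against Nppa in the same library, both in CPM on log axes, in atria (left) and ventricles (right) of 18 mice; colours give the genotype. In ventricles the points lie along a rising line from mice with 63.5 CPM of Nppb to mice with 254 or more, and in atria they scatter, with Nppa between 11939.9 and 26775 CPM.

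Among the receptors, Npr3 showed the strongest preference for atria and the only genotype difference that passed the test. Gnb5+/+ atria ranged from 273 CPM over a median of 308 to 374, and Gnb5+/+ ventricles from 30.3 over 36.2 to 46.7. The groups were far apart, with an atrial mean 8.54 times the ventricular one (log2 fold change 3.08 ± 0.10, adjusted p = 3.2e-17). Gnb5-/- atria ranged from 348 CPM over 430 to 446, and Gnb5+/- atria from 299 over 336 to 349. The Gnb5-/- level was 1.31 times the Gnb5+/+ level (log2 fold change 0.39 ± 0.08, adjusted p = 0.044, exact permutation p = 0.0065). All 6 Gnb5-/- mice lay above the Gnb5+/+ mean, and 5 of them above every Gnb5+/+ mouse, the exception being mouse 10 at 348 CPM.

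Npr3 was thus the 1 member called of 7 tested in Gnb5-/- atria, where 0.253% of all 16181 genes tested were called (0.136% as higher). The study had already listed Npr3 as upregulated in Gnb5-/- atria, with DESeq2 on the same libraries, so this call is not an independent one. With DESeq2 the adjusted p was 0.0012, with the 12 Gnb5-/- and Gnb5+/+ libraries alone it was 0.17, and it passed in 3 of the 18 fits that left out 1 library. The fold change itself moved little, between 0.35 and 0.44 on the log2 scale over those 18 fits. Epicardial markers (Upk3b, Msln, Wt1) summed to a median of 263 CPM in Gnb5+/+ atria (181 to 373) and 286 in Gnb5-/- atria (234 to 342), and endothelial markers to 675 and 670 CPM. Other marker sums differed more: adipocyte markers (Adipoq, Plin1, Cidec) had medians of 10.1 CPM in Gnb5+/+ atria (2.58 to 19.8) and 20.4 in Gnb5-/- atria (4.38 to 97.6), with 3 of 3 genes at an unadjusted p below 0.05 in edgeR and 0 called. Of all genes, 8.15% passed that unadjusted level. Conduction markers (Hcn4, Shox2, Isl1) had medians of 9.86 CPM (7.84 to 33.3) and 32.4 CPM (3.38 to 52.1), and ventricular myocyte markers of 381 CPM (73.2 to 1334) and 210 CPM (114 to 440), with 0 called. The part of these cells in the Npr3 difference was not tested. In ventricles the Npr3 log2 fold change of Gnb5-/- mice was 0.21 ± 0.11 (adjusted p = 1.00), and the difference between the ventricular and the atrial effect, -0.17 ± 0.13, did not pass the test (adjusted p = 1.00). In Gnb5+/- mice the log2 fold change of Npr3 was 0.05 ± 0.08 in atria and -0.01 ± 0.11 in ventricles.

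**Figure D3:**
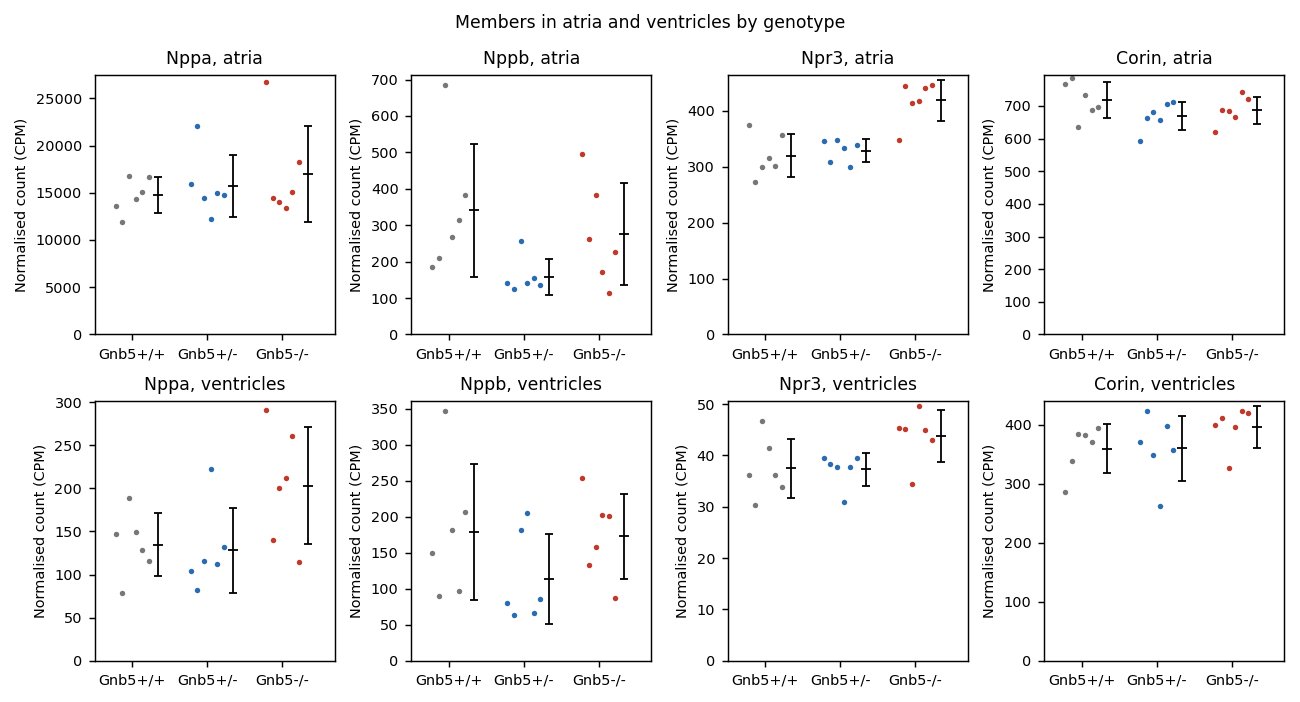
Normalised counts (CPM, linear axes from 0) of Nppa, Nppb, Npr3 and Corin in atria (top) and ventricles (bottom); dots are mice and bars show the mean ± SD of 6. All but 1 of the 6 Gnb5-/- atrial Npr3 values lie above all Gnb5+/+ values, which reach 374 CPM, and the other panels overlap.

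Npr1, the receptor of ANP and BNP, was higher in atria than in ventricles. Gnb5+/+ atria ranged from 45.4 CPM over 54.9 to 63.1 and ventricles from 30.9 over 38.5 to 40.6, without overlap (log2 fold change 0.52 ± 0.10, adjusted p = 0.00013). Npr2, the receptor of CNP, was nearly level between the chambers: Gnb5+/+ atria had a median of 87.5 CPM (76.6 to 100.1) and ventricles of 82.8 (67.8 to 91.0), with a log2 fold change of 0.08 ± 0.07 (adjusted p = 0.33). Neither receptor passed the test for genotype in the heart. The log2 fold changes of Gnb5-/- against Gnb5+/+ mice were 0.12 ± 0.09 for Npr1 and 0.11 ± 0.06 for Npr2 in atria, and 0.02 ± 0.10 and 0.02 ± 0.07 in ventricles.

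Per kb of exon, the receptors were mixed differently in each tissue. In Gnb5+/+ atria Npr3 made up 53.1% ± 3.1 (SD, n = 6) of the summed receptor level, Npr2 29.4% ± 2.7 and Npr1 17.5% ± 1.6. In Gnb5+/+ ventricles Npr2 led with 59.9% ± 2.6, before Npr1 with 26.3% ± 1.9 and Npr3 with 13.8% ± 2.9. In the brain Npr2 led as well, with 76.7% ± 5.3 in cerebellum, 69.9% ± 3.8 in hippocampus and 86.1% ± 1.0 in cortex of Gnb5+/+ mice. The share of Npr3 was 0.391% in cerebellum and 18.7% in hippocampus.

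**Figure D4:**
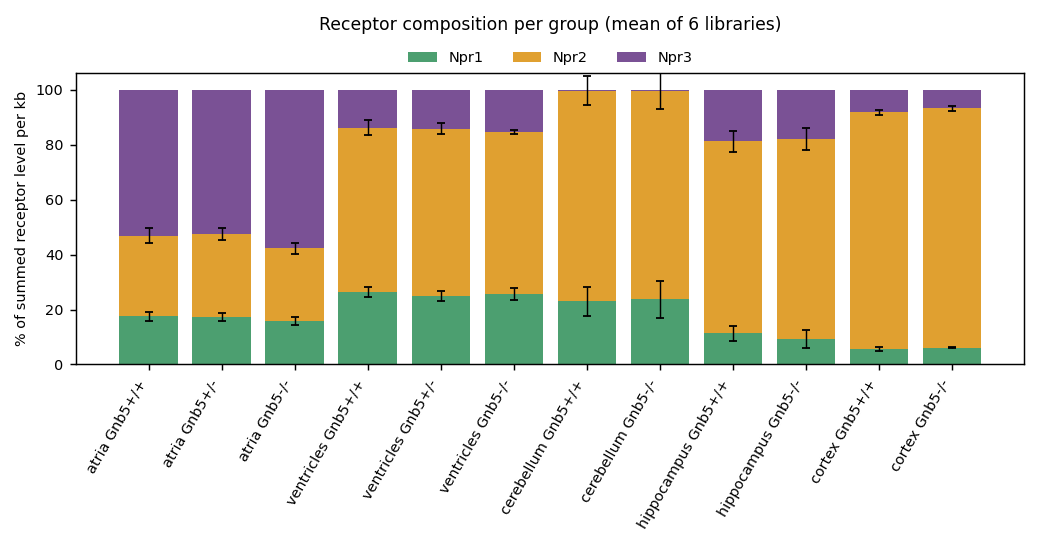
Share of Npr1, Npr2 and Npr3 in the summed receptor level per kb of exon, in percent, as the mean of 6 libraries per group; error bars on the Npr1 and Npr2 segments are the SD of that gene's own share. Npr3 is the largest segment in atria (53.1% in Gnb5+/+ mice) and Npr2 in the 4 other tissues.

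The receptors also differed within the brain of wild-type mice. Npr3 ranged from 21.2 CPM over 25.5 to 28.4 in hippocampus, from 9.44 to 11.3 in cortex and from 0.407 over 0.722 to 0.976 in cerebellum, and no neighbours in this order overlapped (adjusted p = 1.4e-11 and 6.2e-20). Npr1 took another order, with 21.7 ± 6.0 CPM in cerebellum, 7.66 ± 1.5 in hippocampus and 3.49 ± 0.39 in cortex, again without overlap (adjusted p = 1.0e-11 and 9.7e-08). Npr2 stood at 69.9 ± 2.8 CPM in cerebellum, 52.3 ± 2.9 in cortex and 46.4 ± 4.9 in hippocampus. For Npr2, cortex against hippocampus did not pass the test (adjusted p = 0.055), nor did ventricles against cerebellum (adjusted p = 0.096). Both passed with RLE size factors (adjusted p = 0.028 and 0.032) and with DESeq2 (adjusted p = 0.019 and 0.027).

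Corin, the protease that activates pro-ANP, was also higher in atria. Gnb5+/+ atria ranged from 636 CPM over 715 to 786 and Gnb5+/+ ventricles from 285 over 376 to 395. The chambers did not overlap, and the atrial mean was 2.00 times the ventricular one (log2 fold change 0.98 ± 0.10, adjusted p = 8.5e-09). In the brain Corin averaged 10.4 ± 1.4 CPM in Gnb5+/+ cerebellum and reached at most 0.349 CPM in cortex and hippocampus, with the exception of the hippocampus of mouse 8 at 1.58 CPM. Its log2 fold changes in Gnb5-/- mice were -0.06 ± 0.07 in atria, 0.13 ± 0.11 in ventricles and -0.27 ± 0.15 in cerebellum (adjusted p = 0.88, 1.00 and 0.58).

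Furin, the convertase found in most cells, was present in all 5 tissues. It averaged 126 ± 20 CPM in Gnb5+/+ atria and 115 ± 19 in ventricles, then 43.6 ± 2.5 in cerebellum, 32.7 ± 1.5 in hippocampus and 29.0 ± 1.3 in cortex. Atria against ventricles did not pass the test with the mouse as a block (adjusted p = 0.39). Hippocampus and cortex were not separated (adjusted p = 0.15). In Gnb5+/- ventricles all 6 mice lay below the Gnb5+/+ mean (73.2 CPM over 101 to 112, against 91.2 over 125 to 129), with overlap and a log2 fold change of -0.25 ± 0.11 (adjusted p = 0.96, exact permutation p = 0.10). The lowest Furin values of the brain belonged to the Gnb5-/- libraries that stood apart, 12.9 CPM in the cerebellum of mouse 12 and 5.86 CPM in the cortex of mouse 14.

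The chamber differences were then read in each genotype, with each mouse as a block. In Gnb5+/+ mice 5 of the 7 members tested were higher in atria and 0 lower, where 27.2% of 16507 genes were called higher in atria and 54.2% were called in either direction. The chambers did not overlap for 4 members in Gnb5+/+ mice, 6 in Gnb5+/- mice and 4 in Gnb5-/- mice, against 28.1%, 34% and 37.7% of all genes. In Gnb5+/- mice all 7 tested were higher (background 30.2% higher, 59.2% in all), and in Gnb5-/- mice 6 of 7 (29.4% and 58.1%). The members that changed between these counts had small differences: Npr2 had log2 fold changes of 0.08, 0.21 and 0.17 and Furin of 0.11, 0.39 and 0.18 in Gnb5+/+, Gnb5+/- and Gnb5-/- mice. Nppa was 6.79 ± 0.25, 6.98 ± 0.26 and 6.40 ± 0.25 higher on the log2 scale, and Npr3 3.08, 3.13 and 3.24. Nppb was 0.92, 0.59 and 0.59 higher, and the latter calls did not hold without the mouse as a block (adjusted p = 0.26 in Gnb5+/- and 0.11 in Gnb5-/- mice). The Npr2 call in Gnb5-/- mice did not hold without the filter on low counts (adjusted p = 0.16).

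No member passed the test for a genotype effect that differed between ventricles and atria. With edgeR 0 of the 7 members tested were called in the Gnb5-/- and in the Gnb5+/- interaction, 0 at an unadjusted p below 0.05, and 0 with DESeq2. At that unadjusted level there were 3.88% and 5.24% of all genes. In these interactions 0% of 16507 genes were called. The largest Gnb5-/- difference was that of Nppa, at 0.40 ± 0.28 on the log2 scale.

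**Figure D5:**
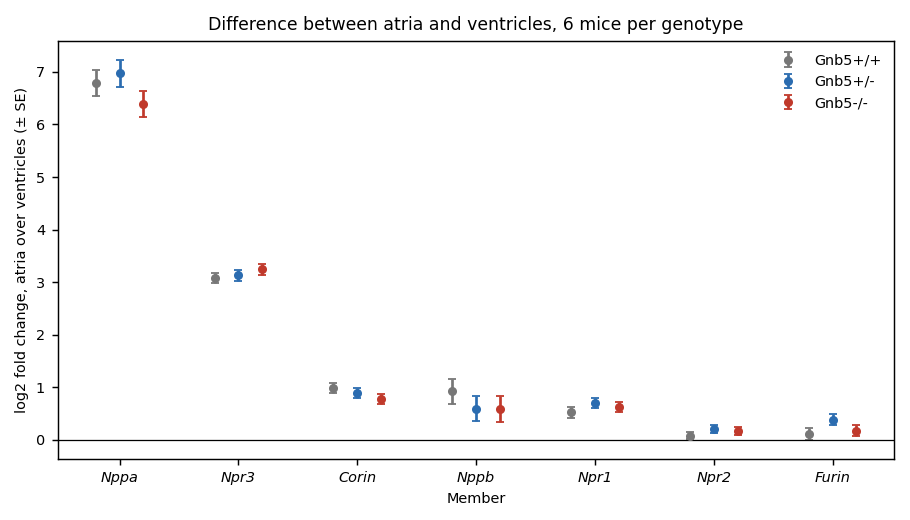
Log2 fold change of atria over ventricles for the 7 members with enough reads, with error bars of 1 SE, in Gnb5+/+ (grey), Gnb5+/- (blue) and Gnb5-/- (red) mice, 6 mice each. Nppa lies between 6.40 and 6.98, Npr3 between 3.08 and 3.24 and the other 5 genes below 1.

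In the brain no member passed the test for genotype. With edgeR 0 of 6 members tested were called in cerebellum (0.0817% of 17139 genes were called), 0 of 5 in hippocampus (0.165% of 17588) and 0 of 6 in cortex (0.0557% of 17967), also with DESeq2. At an unadjusted p below 0.05 there were 1, 0 and 1, against 5.85%, 7.70% and 7.39% of all genes. The first was Nppc in cerebellum, which ranged from 1.42 CPM over 1.62 to 3.23 in Gnb5-/- mice and from 1.05 over 1.28 to 1.52 in Gnb5+/+ mice. All 6 Gnb5-/- mice lay above the Gnb5+/+ mean, with overlap (log2 fold change 0.55 ± 0.20, adjusted p = 0.58, exact permutation p = 0.0043). The highest value, 3.23 CPM, was that of mouse 12, and the log2 fold change was 0.32 in the fit without it.

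The second was Npr3 in cortex. Gnb5-/- mice ranged from 4.12 CPM over 8.04 to 10.2 and Gnb5+/+ mice from 9.44 to 11.3, so that 1 of 6 Gnb5-/- libraries exceeded the Gnb5+/+ mean (log2 fold change -0.38 ± 0.16, adjusted p = 0.47, exact permutation p = 0.013). The lowest value was that of mouse 14, whose library also had the lowest Npr1, Npr2 and Furin of its group, and the next was that of mouse 3, at 6.97 CPM. In these libraries 6.86% and 8.32% of reads lay outside genes, against 13.4% to 14.9% in the other 4 of the group. The log2 fold change was -0.27 without mouse 14, and the part of library quality in it was not tested. For differences of the Gnb5-/- effect between brain regions, edgeR called 0 of 6 members tested in hippocampus against cerebellum, cortex against cerebellum and cortex against hippocampus, where 0.0258%, 0.0103% and 0% of 19388 genes were called. In each of these, 0 members had an unadjusted p below 0.05, against 3.72%, 3.72% and 4.42% of all genes, and DESeq2 called 0 members.

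The other genes of the pathway were followed in 5 lists of 43 genes in all. These lists covered other proteases and clearance enzymes, effectors and phosphodiesterases of cyclic GMP, other guanylyl cyclases, transcription factors of the peptide genes, and genes that respond to cardiac load. With edgeR 0 of these genes were called in any of the 7 genotype comparisons, in which 29 to 37 of them were tested. At an unadjusted p below 0.05 there were 8 of 37 in Gnb5+/- atria, 4 of them among the 5 load genes, and 5 of 37 in Gnb5-/- atria, where 7.22% and 8.15% of all genes passed that level. With DESeq2 1 was called in each. This gene was Myh7, a myosin heavy chain of slow muscle and stressed heart, chosen here after its values were seen. Myh7 averaged 5.95 ± 1.1 CPM in Gnb5-/- atria, 5.56 ± 1.2 in Gnb5+/- atria and 11.01 ± 4.3 in Gnb5+/+ atria (DESeq2 adjusted p = 0.012 and 0.017, edgeR 0.14 and 0.53). In Gnb5+/+ ventricles it averaged 329 ± 134 CPM. Summed ventricular myocyte markers in atria had medians of 381, 137 and 210 CPM in Gnb5+/+, Gnb5+/- and Gnb5-/- mice, within overlapping ranges. The part of ventricular tissue in the atrial values of Myh7 and the other load genes was not tested.

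Between the chambers of Gnb5+/+ mice, 13 of 37 tested pathway genes were higher in atria and 13 lower, against 27.2% of all genes higher and 54.2% called in either direction. The leading transcription factor genes were Tbx5, a T-box factor of atrial and conduction cells (362 ± 22 CPM in atria, 38.8 ± 8.6 in ventricles, log2 fold change 3.23 ± 0.13), and Tbx20 (329 ± 56 and 170 ± 11, 0.92 ± 0.13). Of the other T-box genes listed, Tbx3 was lower in atria (log2 fold change -0.79 ± 0.16, adjusted p = 0.00022). Tbx2 did not pass the test (0.05 ± 0.15, adjusted p = 0.80). The GATA genes differed in direction. Gata4 was slightly lower in atria (175 ± 17 and 205 ± 22, log2 fold change -0.25 ± 0.10, adjusted p = 0.033). Gata6 was higher in atria (114 ± 23 and 73.2 ± 13, 0.62 ± 0.09, adjusted p = 4.5e-06). Nkx2-5 did not pass the test (46.6 ± 8.4 and 43.1 ± 10, adjusted p = 0.60). Gata4, Gata6, Nkx2-5, Tbx2 and Tbx3 were named for the motifs searched, after their values were seen. Of the cyclic GMP genes, Mrvi1, a substrate of the cyclic GMP kinase, and Pde9a, a phosphodiesterase specific for cyclic GMP, led with log2 fold changes of 2.28 ± 0.12 and 1.89 ± 0.17. The soluble cyclase subunit Gucy1a1 (2.38 ± 0.09) and the membrane cyclase Gucy2e (3.43 ± 0.34, at 2.09 ± 1.0 CPM in atria) led the other cyclases. Of the 4 peptide processing and clearance genes tested 1 was higher in atria, the peptidase gene Dpp4 (2.18 ± 0.11), and 3 were lower, led by neprilysin (Mme), which degrades the peptides (-1.63 ± 0.17). Of the load genes, Myh7 was lower in atria (-4.88 ± 0.28) and Ctgf, which encodes a matrix growth factor, was higher (2.33 ± 0.19).

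The genes whose log2 levels followed each member most closely over the 72 libraries were read off as a description, since all points share tissue differences and libraries. Nppa was followed by Myl7, the atrial myosin light chain (r = 0.993), and Upk3b, an epicardial marker (r = 0.991). Nppb was followed by Ankrd1, a stretch-responsive muscle gene (r = 0.995), and Tbx20 (r = 0.994), and Corin by Smpx (r = 0.994) and Aaed1 (r = 0.991). Npr3 was followed by Aldh1b1 (r = 0.983) and Lrrn4 (r = 0.978), Npr1 by Traf3ip2 (r = 0.971) and Ddo (r = 0.961), and Npr2 by Esyt1 (r = 0.960) and Trim26 (r = 0.951). Nppc was followed by the brain genes Cpne9 and Btbd17 (both r = 0.976), and Furin by Pdxdc1 (r = 0.985) and Igf2r (r = 0.979).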

How the data were processed

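RNA of 72 tissue samples from 18 mice was sequenced as stranded libraries. The authors trimmed reads with cutadapt 1.8, aligned them with STAR 2.5.3a and counted them per gene with HTSeq 0.9.1, and the deposited values are raw read counts for 53715 genes (tool names and versions from the submitters' processing notes and the study's methods). Of the identifiers, 53620 matched the GENCODE annotation of GRCm38. Reads outside genes, 2.85% to 17.0% of a library, were left out.

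Counts were normalised with TMM factors, filtered with filterByExpr (minimum count 10) and tested with edgeR 4.0.16 (quasi-likelihood, Benjamini-Hochberg adjustment over all genes tested, threshold 0.05) in R 4.3.3. Genotypes were compared within each tissue over all its libraries, and tissues and interactions with the mouse as a block, since the same animals gave the tissues. Exact permutation tests over 924 divisions of 6 against 6 mice were two-sided and cannot go below 0.00216. Relations used 100000 permutations. Tests were also run on simulated counts with changes added to single groups. Those counts held no mouse effects and no other tissue differences, so they cannot check the mouse block. Alternatives were DESeq2 1.42.0, RLE size factors, no filter, 2 genotypes alone, the block and leaving out each library.

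The members and lists were chosen with earlier results of these data known. All members were named; of each pathway list, genes called in a genotype comparison and the 2 with the smallest adjusted p between the chambers; of like genes, the 2 with the highest Pearson's r.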

Additional observations from a re-analysis of the deposited data

Results flagged for a closer look

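In 84 groups of 6 libraries with enough reads, 17 held a library whose distance from its nearest neighbour passed Dixon's 95% limit, relative to the range of the group. Chance alone singles out about 1 in 20 groups, and several of the 17 belong to the same libraries.

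The wild-type mouse 8 was high for heart genes in its brain libraries, with 0.602 CPM of Nppa, 0.722 of Nppb and 1.58 of Corin in hippocampus and 0.27 CPM of Nppa in cerebellum. The Gnb5-/- cortex library of mouse 14 was low for Npr1 (2.17 CPM) and Npr2 (29.5 CPM), and the ventricles of the same mouse were low for Corin (326 CPM). The Gnb5-/- cerebellum library of mouse 12 was low for Furin (12.9 CPM) and high for Nppc (3.23 CPM), and its summed choroid plexus markers were the highest of its group, at 609 CPM.

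In the atria of the Gnb5-/- mouse 10, Nppa was high (26800 CPM) and Npr3 low (348 CPM), and Corin was low in its cortex (0.0792 CPM). The ventricles of the Gnb5+/- mouse 4 were high for Nppa (222 CPM) and low for Npr3 (31 CPM), and its atria were low for Furin (117 CPM). Summed atrial myocyte markers in those ventricles were also the highest of all ventricular libraries, at 266 CPM. The remaining libraries were the Gnb5+/- atria of mouse 13 (Nppa, 22000 CPM) and of mouse 2 (Nppb, 258 CPM).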

How the results depend on the processing

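Depth limited Nppc in the heart and Nppa and Nppb in the brain, where single reads set the values.

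For replicate numbers, which name different animals in each genotype, samples with the same number did not deviate together (mean r from -0.08 to -0.006, with at most 1 of 6 pairs over 0.1), so the replicate block shares only a number. With it, 0 genes were called in Gnb5+/- ventricles, 5 in Gnb5-/- cerebellum, 19 in hippocampus and 6 in cortex, and 0 members in Gnb5-/- atria (Npr3 adjusted p = 0.13). The block turned the log2 fold change of Corin in Gnb5+/- ventricles to -0.0081 and of Nppb in Gnb5-/- ventricles to 0.068. Without the mouse as a block, 2 genes were called in the Gnb5-/- heart interaction and 4 in cortex minus cerebellum.

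DESeq2 called 7 genes in Gnb5+/- atria, 110 in Gnb5-/- atria, 63 in Gnb5-/- ventricles, 49 in cerebellum, 104 in hippocampus and 25 in cortex, and 18, 1, 9 and 20 in the interactions of Gnb5-/- heart, Gnb5+/- heart, hippocampus minus cerebellum and cortex minus cerebellum. With 2 genotypes only, 20 genes and 0 members were called in Gnb5-/- atria and 1 gene in Gnb5+/- ventricles. Without the filter, 0 members were called in Gnb5-/- atria, 97 and 89 genes in the Gnb5-/- and Gnb5+/- heart interactions, and Corin in Gnb5+/- ventricles was -0.0125.

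Leaving out the 2 brain libraries that stood apart, an alternative chosen after seeing the data, gave 8, 12 and 3 genes in the interactions hippocampus minus cerebellum, cortex minus cerebellum and cortex minus hippocampus. It turned Npr2 to -0.037, Npr3 to 0.15 and Furin to -0.022 in the first and Npr1 to 0.10 in the second, none of them called. Npr3 in the first was 0.0052 with RLE factors and 0.0058 with DESeq2. Without the brain libraries of mouse 8, also chosen after seeing the data, Nppa and Corin in hippocampus against cortex turned to -0.99 and -0.43 and Nppb in cerebellum against cortex to -0.995. Nppa in hippocampus against cortex was -0.79 with DESeq2. The relation of atrial to ventricular Nppa was r = 0.0093 with RLE factors. The cause of these changes was not tested.

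Leaving out 1 library at a time, the calls ran from 2 to 6 genes in Gnb5+/- atria, 24 to 62 genes in Gnb5-/- atria, 1 to 5 genes in Gnb5+/- ventricles, 17 to 42 genes in Gnb5-/- ventricles, 9 to 62 genes in Gnb5-/- cerebellum, 21 to 37 genes in Gnb5-/- hippocampus and 8 to 22 genes in Gnb5-/- cortex, and the members called in Gnb5-/- atria from 0 to 1. The upper count in cerebellum, 62, and that in cortex, 22, came without the Gnb5-/- libraries of mouse 12 and mouse 14. In Gnb5-/- atria 62 genes were called without the Gnb5+/+ mouse 15 and 24 without the Gnb5-/- mouse 1, and in Gnb5-/- ventricles 17 without the Gnb5+/+ mouse 7. Members whose log2 fold change turned, none of them called, ran as follows. In Gnb5+/- atria the ranges were Nppa -0.0167 to 0.159, Npr1 -0.00151 to 0.095 and Furin -0.0623 to 0.0712. In Gnb5-/- atria the ranges were Nppb -0.555 to 0.0156 and Furin -0.0278 to 0.101. In Gnb5+/- ventricles the ranges were Nppa -0.3 to 0.0384, Npr3 -0.0671 to 0.0689 and Corin -0.0561 to 0.084. In Gnb5-/- ventricles the ranges were Nppb -0.202 to 0.246, Npr1 -0.0379 to 0.0742, Npr2 -0.01999 to 0.0533 and Furin -0.0757 to 0.0194. In Gnb5-/- cerebellum the ranges were Npr1 -0.0341 to 0.265, Npr3 -0.205 to 0.0806 and Furin -0.2004 to 0.0593. In Gnb5-/- hippocampus the ranges were Nppc -0.096 to 0.0752 and Npr3 -0.104 to 0.008998. In Gnb5-/- cortex the ranges were Nppc -0.0179 to 0.197, Npr1 -0.0147 to 0.127, Npr2 -0.136 to 0.0106 and Corin -0.0471 to 0.254.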

Other observations

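The ratio of Nppa to Nppb per kb of exon differed between genotypes in its median. It was 45.9 in Gnb5+/+ atria (22.2 to 66.3), 92.9 in Gnb5+/- atria (50.7 to 160) and 60.3 in Gnb5-/- atria (33.0 to 119), with overlapping ranges. In ventricles the medians were 0.767, 1.17 and 1.09. The ratio was not tested.

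Conduction markers (Hcn4, Shox2, Isl1) summed to a median of 9.86 CPM in Gnb5+/+ atria (7.84 to 33.3), 35.3 CPM in Gnb5+/- atria (20.01 to 46.1) and 32.4 CPM in Gnb5-/- atria (3.38 to 52.1), within overlapping ranges.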
